A study of Mus musculus with 12 samples.

Results

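The genes of cholesterol synthesis and its control by the sterol regulatory element binding proteins (SREBPs) were followed across 4 groups of mouse cornea. The 29 genes were taken by name as enzymes of the mevalonate and sterol pathway, regulators of SREBP, and sterol carriers, out of 28548 lines of the deposited table. All 29 were in the table and passed the filter on low values. They comprise 19 enzymes, 7 genes of SREBP regulation and 3 genes of sterol transport.

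RNA was sequenced from the cornea of WT mice in 4 groups. Controls were without treatment, and a second group was the DED model, where DED stands for dry eye disease. Of the other two, both DED mice treated with exosomes derived from stem cells, one received an eye drop and one an intravenous (i.v.) dose. Exosomes are small vesicles that cells release. The labels list 3 samples per group and 1 shared date. They do not say how DED was induced, nor the strain, sex, age, dose or hour of collection. No vehicle group is among the labels, so exosomes and the act of giving a drop or injection cannot be told apart. In every line the value of the third eye drop sample was, within 5e-09, the log2-scale average of its 2 companions. It was left out, which leaves 3 control, 3 DED, 2 eye drop and 3 i.v. libraries. Nothing in the labels says that libraries of a group came from separate mice, so p-values measure the spread between these libraries alone.

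Cells build cholesterol from acetyl-CoA by way of mevalonate, the isoprenoid farnesyl diphosphate, squalene and lanosterol. SREBP2, the product of Srebf2, is the main activator of these enzyme genes. When membrane sterol is high, INSIG proteins hold SREBP and its escort SCAP in the endoplasmic reticulum. When it is low, SCAP carries SREBP to the Golgi, where the proteases encoded by Mbtps1 and Mbtps2 release the active factor. Insig1 is itself a target of SREBP. The corneal epithelium renews its surface cells throughout life and uses cholesterol in the membranes of its barrier.

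Libraries held 8956553 to 14263045 counts, and values below are counts divided by a size factor per library ("normalized counts"). All 8 corneal epithelium markers were present, with a summed level of 663692 to 1039170 normalized counts per library. Conjunctiva and goblet cell markers (6 of 6 in the table) split. Their sum, most of it Krt13, was 83605 to 104525 normalized counts with i.v. exosomes, 57401 to 62508 in the drop libraries, 42791 to 55379.5 in DED and 41039 to 53663 in controls. The keratins Krt13, Krt4 and Krt19 were higher in each i.v. library than in any other. The secretory genes Agr2 (61.9, 40.8 and 36.3 with i.v. exosomes against 57.8, 54.3 and 50.8 in DED) and Spdef (2.6, 7.0 and 10.2 against 7.6, 6.7 and 14.0) were not. Muc5ac, the defining goblet cell mucin, was at 0 in 8 of 11 libraries. Of the lipid-making gland list, 7 of 8 markers were in the table and summed to 813 to 1006, 971 to 1218, 1009 to 1017 and 925 to 1201 in the 4 groups. That list's Awat1, Elovl3 and Dgat2l6, typical of meibomian and sebaceous glands, stayed below 1 normalized count in every library. Awat2 reached at most 8.9 and Scd3 at most 10.6, and the sum was made up mostly of Dgat2 (526.5 to 998.3) and Far2 (179.6 to 323.4). Adipocyte markers (5 of 6) summed to at most 25.3. Lens markers (11 of 11) ranged from 129 to 2907 in controls, 177 to 398 in DED, 2202 to 26456 with the drop and 76.9 to 2942 with i.v. exosomes. Retina markers (10 of 10) ranged from 233 to 4619, 2579 to 21445, 389 to 1694 and 1381 to 2552 in the same order. Skeletal muscle markers (9 of 9) ranged from 17.8 to 246, 32.2 to 849.9, 31.6 to 105 and 136 to 7242. Keratocyte (7 of 7), melanocyte and iris (5 of 5), immune (8 of 8) and vessel markers (4 of 4) summed in controls to 1776 to 3499.6, 344 to 526, 855 to 1056 and 4.5 to 34.8. In DED those 4 lists summed to 2562 to 6118, 584 to 1607, 1167 to 1582 and 64.3 to 115. With the drop they summed to 2214 to 7759, 443 to 606, 1335 to 1639.9 and 19.1 to 63.2, and with i.v. exosomes to 3925 to 4765, 477 to 1879, 1153 to 1606 and 36.3 to 92.2. The part of these other tissues in the results below was not tested, apart from the values given without the libraries richest in them.

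The promoters of these genes show what they share in sequence. RefSeq promoter windows on GRCm38.p6, each 300 bases long with 250 bases before the start and 50 after, were at hand for 24 of the 29 genes (32 windows). The genes Fdps, Fdft1, Sqle, Stard4 and Npc1 were not matched. Both strands were searched for CCAAT, the box of the factor NF-Y, which acts beside SREBP. It stood in the windows of 20 of 24 genes (83.3%), against 41.1% of all 27025 genes with a window. GGGCGG, the box of Sp1, stood in 21 of 24 (87.5%, against 38.2%), and the E-box CACGTG in 5 of 24 (20.8%, against 8.09%). The core TCACNCCAC of the sterol regulatory element stood in 1 of 24, Hmgcs1 (4.2%, against 1.44%). No 2 hits of different motifs overlapped in these windows. The 27025 genes were not limited to genes expressed in these libraries. A match in any window of a gene counted, with 32 windows for the 24 genes and 32851 for the 27025. A match describes the letters and is not a shown binding site. A missing match says that these letters are not in this window.
The stretches before the start of Hmgcs1, Mvd and Insig1 are shown because Hmgcs1 carries the sterol core, Mvd a pair of NF-Y boxes and Insig1 an E-box. Capitals mark TCACNCCAC, CCAAT and CACGTG on either strand, so a CCAAT box on the opposite strand reads ATTGG. They read 5′ to 3′ on the gene's strand, up to the start for Hmgcs1 and Mvd and up to the first annotated exon for Insig1. Their positions are chr13:119690101-119690350 (plus strand) for Hmgcs1, chr8:122443423-122443672 (minus strand) for Mvd and chr5:28071162-28071362 (plus strand) for Insig1.
Hmgcs1: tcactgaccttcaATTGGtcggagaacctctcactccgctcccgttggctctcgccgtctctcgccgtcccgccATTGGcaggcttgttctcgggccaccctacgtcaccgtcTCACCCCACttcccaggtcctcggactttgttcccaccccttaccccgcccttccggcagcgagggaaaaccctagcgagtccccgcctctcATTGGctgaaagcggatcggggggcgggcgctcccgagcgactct
Mvd: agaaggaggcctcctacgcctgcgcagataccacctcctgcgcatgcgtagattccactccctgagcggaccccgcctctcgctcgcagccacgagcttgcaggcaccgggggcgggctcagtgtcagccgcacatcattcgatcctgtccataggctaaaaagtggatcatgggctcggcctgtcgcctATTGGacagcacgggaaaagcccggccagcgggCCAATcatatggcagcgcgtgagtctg
Insig1: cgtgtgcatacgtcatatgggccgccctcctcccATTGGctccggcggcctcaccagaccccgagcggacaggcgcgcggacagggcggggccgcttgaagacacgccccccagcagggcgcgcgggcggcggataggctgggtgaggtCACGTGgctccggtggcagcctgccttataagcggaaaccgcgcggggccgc
In Hmgcs1 the sterol core begins 137 bases before the start, with NF-Y boxes at 237, 176 and 45 bases before it. In Mvd the boxes begin 60 and 27 bases before the start. In Insig1 the E-box begins 101 bases and the NF-Y box 216 bases before the RefSeq start, which lies 49 bases beyond the end of the stretch shown.

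Levels between genes are compared per kilobase of exon, from lengths of the GENCODE annotation on GRCm38. In untreated cornea Hmgcs1, which makes HMG-CoA, stood highest at 1538 normalized counts per kilobase (range 1404 to 1743 over 3 libraries). Insig1 (1283), the demethylase gene Msmo1 (1276) and Sqle (1149), the squalene epoxidase, came next, and the ranges of neighbours among these 4 genes overlapped. A gap followed: Srebf2, next in order, had 643 per kilobase (593 to 720.3), below the range of Sqle. From Srebf2 down to Nsdhl, and again from Mvk down to Fdps, each gene's range overlapped that of the next. At the bottom stood Hsd17b7 (78.1), Npc1 (73.4), Ggps1 (53.5) and Mbtps2 (17.9). Fdps, the farnesyl diphosphate synthase, was low for an enzyme at 126 per kilobase. It shares 1124 of its 1453 exon bases with the annotated gene Gm43738 on the same strand. The counts used hold no line named Gm43738. How the authors' counting treats shared bases is not given in the sources used here, so the level of Fdps is uncertain. In all, 12 of the 29 genes share exon bases with another annotated gene, among them Hmgcs1, Idi1, Lss, Cyp51 and Fdft1. For Fdps and Mbtps2 the other gene has no line in the counts used. The labels do not say whether counting used strand. In the DED model Insig1 had the highest level (2602 per kilobase) and Hmgcs1 the next (2287).

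**Figure D1:**
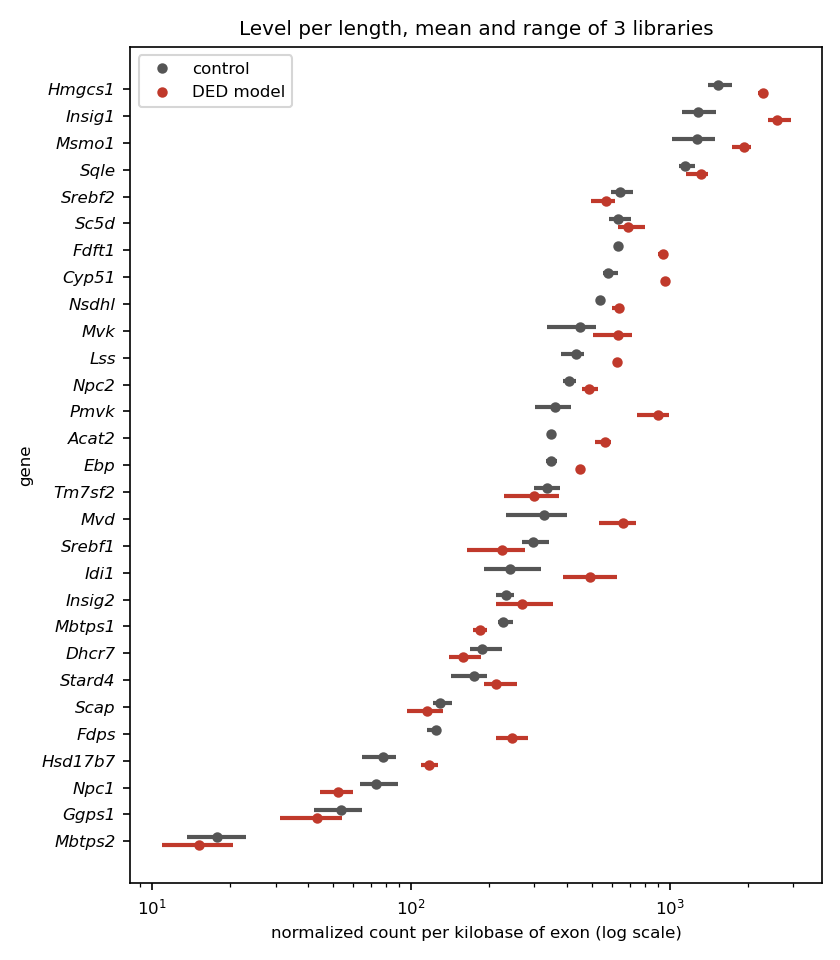
Level of each of the 29 genes per kilobase of exon (x axis, log scale, normalized counts) in control and DED cornea; points are means and lines the range of 3 libraries. Hmgcs1 leads in controls at 1538 and Mbtps2 is last at 17.9.

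The first comparison asked how these genes differed between the DED model and untreated cornea. Pmvk, Mvd, Idi1 and Fdps, 4 of the 6 genes of the mevalonate segment, rose in DED, and so did Cyp51 and Insig1. Of the 29 genes 6 rose and none fell at an adjusted p of 0.05 (limma, Benjamini-Hochberg over 21203 genes), which is 20.7% of them, against 1.25% of all genes called, 0.736% called higher and 0.514% called lower. Over all genes the calls were 156 higher and 109 lower, and the balance moved with the scaling: 254 and 82 with 75th percentile scaling, 137 and 196 with library totals, and 132 and 46 as deposited. The median log2 fold change over the 29 genes was 0.29, against 0.03 over all genes tested. In bulk tissue, more RNA per cell and more cells of a type cannot be told apart. Vessel (64.3 to 115 against 4.5 to 34.8) and adipocyte markers (10.6 to 16.6 against 1.9 to 5.9) were higher in each DED library than in any control. So were melanocyte and iris (584 to 1607 against 344 to 526) and immune markers (1167 to 1582 against 855 to 1056). The other marker lists overlapped. The part of these markers in the differences was not tested.

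The opening steps, condensation of acetyl-CoA to HMG-CoA, lay higher without passing the threshold. Acat2, the cytosolic thiolase, had 849, 889.9 and 868 normalized counts in controls and 1421, 1283 and 1485 in DED. Its log2 fold change was 0.68 (SE 0.17, adjusted p = 0.0564). Hmgcs1 had 5111, 4889 and 6068 in controls and 8349.6, 7628 and 7911 in DED (log2 fold change 0.58, SE 0.16, adjusted p = 0.0787). For both genes every DED library lay above every control library.

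The mevalonate segment held 4 of the 6 risers. Pmvk, the kinase that makes mevalonate diphosphate, had 515, 713 and 630.3 normalized counts in controls and 1284, 1652 and 1702 in DED. It rose by 1.32 on the log2 scale (SE 0.18, adjusted p = 0.00121), the largest change of the 29, and kept its call in each of the 27 alternatives tried, with 1.19 to 1.45. Mvd, the decarboxylase that follows it, had 408, 703 and 604 in controls and 940.0, 1307 and 1233 in DED (log2 fold change 1.04, SE 0.22, adjusted p = 0.0259). Its lowest DED library, DED 1, still lay above its highest control. Idi1, the isopentenyl diphosphate isomerase, had 641, 578 and 967 in controls and 1896, 1169 and 1423 in DED (1.05, SE 0.21, adjusted p = 0.022). DED 1 was its highest library and control 3 the highest control. Fdps had 190.1, 168 and 189 in controls and 346, 413 and 309 in DED (0.95, SE 0.18, adjusted p = 0.0166). Its controls lay within a narrow band and its DED libraries well above them. The other members of the segment did not pass. Mvk, the mevalonate kinase, had 669, 1033 and 1004 in controls and 1012, 1433 and 1339 in DED, so that DED 1 fell among the controls. Ggps1, which makes geranylgeranyl diphosphate, had 284, 186 and 234 in controls and 237, 136 and 195 in DED, with overlapping groups.

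The squalene steps did not pass. Fdft1, the squalene synthase, had 2315, 2391 and 2310.4 normalized counts in controls and 3568, 3345 and 3557 in DED (log2 fold change 0.58, SE 0.15, adjusted p = 0.0765). Lss, which closes the ring to lanosterol, had 1776, 2185 and 2115 in controls and 2984, 2833 and 2979.9 in DED (0.54, SE 0.18, adjusted p = 0.15). In both the groups stood clear of each other. In Sqle they overlapped, with 2996, 3446 and 3068 in controls and 3187, 3890.2 and 3834 in DED. Among the 8 genes from lanosterol to cholesterol Cyp51, the lanosterol demethylase, rose. It had 2165, 2198 and 2479.9 in controls and 3652, 3733 and 3929.7 in DED (0.73, SE 0.15, adjusted p = 0.0283). Msmo1 (0.61, SE 0.20, adjusted p = 0.147) and Hsd17b7 (0.60, SE 0.21, adjusted p = 0.157), which act on later intermediates, did not pass. Cyp51, Msmo1, Hsd17b7, Ebp and Nsdhl had every DED library above every control. Sc5d, the desaturase with the highest mean count of this segment, had 3443, 2844 and 2974 in controls and 3924, 3078 and 3069 in DED, and 3360.2 and 3438 with the drop and 3308, 3237 and 3414 with i.v. exosomes. Its 4 groups overlapped. Tm7sf2 and Dhcr7, the latter the reductase that completes cholesterol, overlapped between control and DED as well.

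Among the SREBP regulators Insig1 rose. It had 3012, 3278 and 4089.8 normalized counts in controls and 6467, 7909 and 6677 in DED (log2 fold change 1.03, SE 0.19, adjusted p = 0.015). Its relative Insig2 did not pass and had 737, 627 and 695 in controls and 1044, 629.9 and 716 in DED. Srebf2 had 3009, 3657 and 3132 in controls and 2519.6, 3114 and 3044 in DED, which overlap. Srebf1, whose product governs mainly fatty acid genes, had 1153, 1464 and 1206 in controls and 708, 1189 and 993 in DED, also with overlap. Scap had 514, 611 and 521 in controls and 407, 563 and 495 in DED. Mbtps1, the site-1 protease, lay lower in every DED library (857, 802 and 757) than in every control (1076, 946 and 948) without passing. Its partner Mbtps2 had 183, 108 and 135 in controls and 163, 86.5 and 111 in DED. Of the sterol carriers, Npc2, whose product carries sterol inside the lysosome, was higher in each DED library (1517, 1749.9 and 1567 against 1318, 1431 and 1276). The lysosomal membrane protein gene Npc1 was lower in each (312, 232 and 276 against 466, 332 and 351). Stard4, a cytosolic sterol carrier, had 961, 742 and 1023 in controls and 1339, 999 and 995 in DED. None of these 3 passed.

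In 15 of the 29 genes every DED library lay above every control, against 13.3% of all genes, and in 2, Mbtps1 and Npc1, below, against 12.5%. The count of 6 depended on the libraries. It was 1 without control 1 (where 0.244% of all genes were called), 3 without control 3 (0.452%), 2 without DED 2 (0.552%), 2 without DED 3 (0.355%) and 12 without i.v. 3 (5.77%). Without the libraries richest in lens, retina and muscle markers (eye drop 2, DED 3 and i.v. 1) it was 1, Pmvk, with 0.313% of all genes called. The median over the 29 genes minus that over all genes stayed between 0.24 and 0.34 in every alternative. Longer genes tended to be lower in DED. With all genes cut into 3 equal bins by exon length, the median change was 0.17 in the shortest bin, 0.04 in the middle and -0.13 in the longest. Over the members in those bins it was 0.95 (5 genes), 0.49 (11 genes) and -0.17 (13 genes). After a correction for length 10 of the 29 rose, where 1.41% of all genes were called (203 higher and 95 lower).

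**Figure D2:**
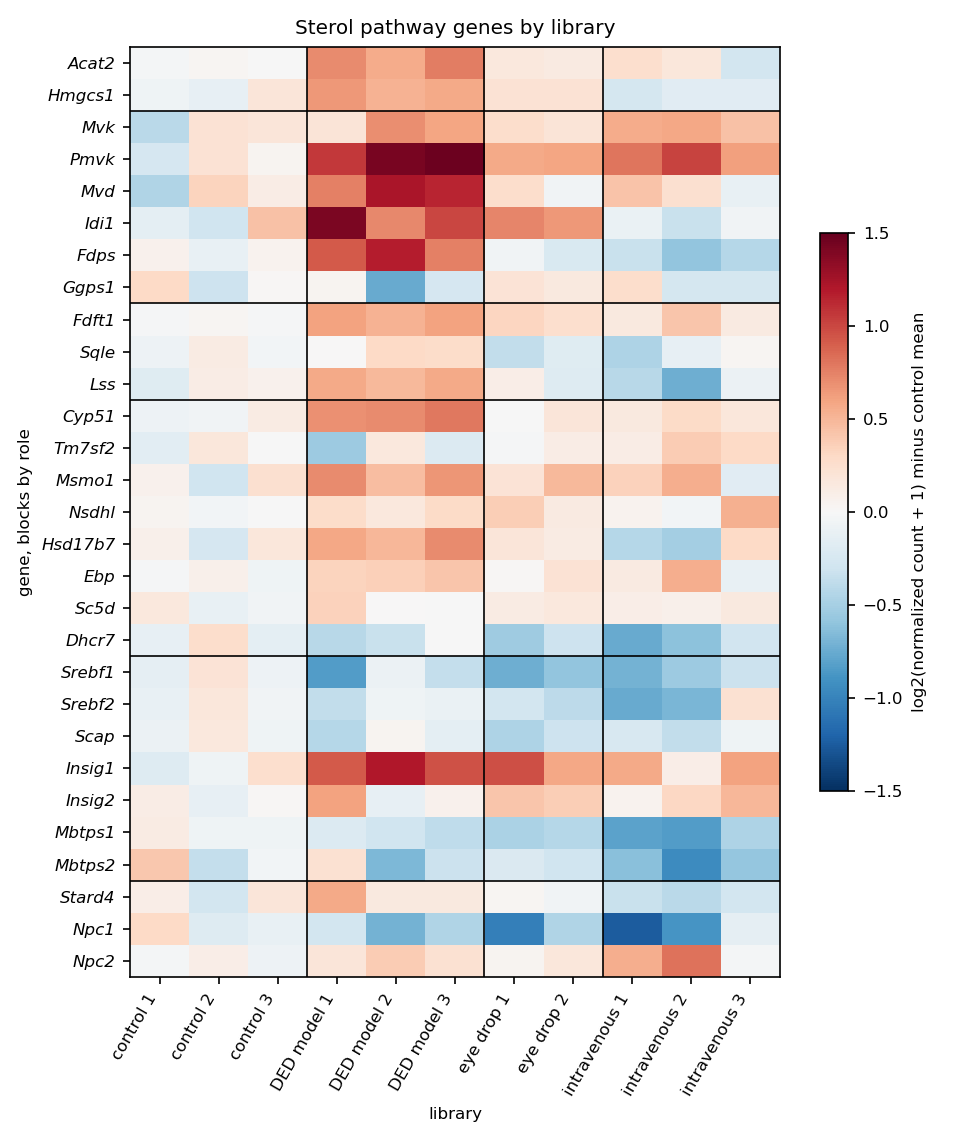
Each of the 29 genes (rows, blocks by role) in each of the 11 libraries (columns); colour is log2(normalized count + 1) minus the control mean, red above and blue below. The 3 DED columns are red for Acat2, Hmgcs1, Pmvk, Mvd, Idi1, Fdps, Cyp51 and Insig1.

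The next comparison set the exosome eye drop against the DED model, with 2 libraries against 3. Fdps was lower with the drop. It was the single gene of the 29 to pass (3.45%, against 0.193% of all genes called, 0.127% called higher and 0.066% called lower). The median log2 fold change over the 29 genes was -0.26, against -0.03 over all genes. This comparison and the one with i.v. exosomes use the DED libraries of the first comparison.

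Fdps had 176 and 155 normalized counts with the drop, below each of the 346, 413 and 309 of DED (log2 fold change -1.09, SE 0.20, adjusted p = 0.0358). Its call was lost without any one of 9 libraries and held without i.v. 2 or i.v. 3; the fold change stayed between -1.19 and -0.98. With the replicate number as a block no gene of the 29 passed, where 0.123% of all genes did. Mvd had 669 and 537 with the drop (-0.94, SE 0.24, adjusted p = 0.267) and Pmvk had 914 and 924 (-0.74, SE 0.20, adjusted p = 0.302). Cyp51 had 2261 and 2574 (-0.64, SE 0.17, adjusted p = 0.28), Lss 2154 and 1769.9 (-0.59, SE 0.20, adjusted p = 0.543), and Acat2 972 and 951 (-0.53, SE 0.19, adjusted p = 0.553). In each of these the drop libraries lay below the DED libraries, but the difference did not pass. Hmgcs1 had 6213 and 6200.4, between its control and DED values. Idi1 had 1181 and 1118, and the higher of them overlapped the DED range. Insig1, with 6713 and 5123, overlapped the DED range as well.

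With the drop 14 of the 29 genes had each library below every DED library, against 13.7% of all genes, and 1, Ggps1 (267 and 255), had both above, against 13.8%. The 14 included Hmgcs1, Fdft1 (2913 and 2783), Sqle (2459 and 2780.0), Hsd17b7 (444 and 427), Ebp (612 and 703), Mbtps1 (713 and 734), Stard4 (916 and 868) and Npc2 (1378 and 1505). Vessel markers also lay lower in both drop libraries (19.1 and 63.2 against 64.3 to 115 in DED). So did retina (389 and 1694 against 2579 to 21445) and adipocyte markers (1.7 and 9.0 against 10.6 to 16.6). Lens (2202 and 26456 against 177 to 398) and conjunctiva markers (57401 and 62508 against 42791 to 55379.5) lay higher in both. The part of these markers in the differences was not tested. Srebf2 (2697 and 2475), Srebf1 (761 and 839) and Scap (395 and 439.6) were not separated from DED.

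The third comparison set i.v. exosomes against the DED model. Hmgcs1, Idi1, Fdps and Lss fell and no gene rose, so that 4 of 29 passed (13.8%, against 1.45% of all genes called, 0.962% called higher and 0.49% called lower). Over all genes the calls were 204 higher and 104 lower, and this balance turned with the scaling: 136 and 249 with 75th percentile scaling, 131 and 455 with library totals, and 90 and 3649 as deposited. The median log2 fold change over the 29 genes was -0.37, against -0.04 over all genes.

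Hmgcs1 had 4458, 4754 and 4735 normalized counts with i.v. exosomes, a narrow band below the DED libraries (log2 fold change -0.78, SE 0.16, adjusted p = 0.0207). Idi1 had 663, 561 and 686 (-1.21, SE 0.21, adjusted p = 0.00948), and these overlapped its control values. Fdps had 145, 121 and 135 (-1.40, SE 0.18, adjusted p = 0.00106), below each control library too. It kept its call in each of the 27 alternatives, with -2.02 to -1.29. Lss had 1507, 1216 and 1902 (-0.95, SE 0.18, adjusted p = 0.016), with i.v. 3 nearest to DED. Mvd had 748, 657 and 518 (-0.86, SE 0.22, adjusted p = 0.0606) and did not pass, and neither did Hsd17b7 with 289.8, 274 and 480.3 (-0.81, SE 0.21, adjusted p = 0.0613). Acat2 had 1032, 976 and 717 (-0.64, SE 0.17, adjusted p = 0.0718), and Stard4 715, 678 and 744 (-0.63, SE 0.18, adjusted p = 0.0868). Insig1 had 5084, 3687 and 5214 (-0.60, SE 0.19, adjusted p = 0.133), Cyp51 2518, 2769.8 and 2558 (-0.53, SE 0.15, adjusted p = 0.101), and Pmvk 1075, 1244 and 942 (-0.51, SE 0.18, adjusted p = 0.177). These 7 genes had each i.v. library below every DED library, but none of them passed. Mvk, by contrast, had 1306, 1320.2 and 1206, inside the DED range, and 1065 and 1012 with the drop. Sqle had 2295, 2912 and 3224 with i.v. exosomes, and the last lay within the DED range.

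In 13 of the 29 genes each i.v. library lay below every DED library, against 8.88% of all genes, and in none above, against 8.12%. The third i.v. library stood apart in several genes. Srebf2 had 1921 and 2015 in i.v. 1 and 2 and 3826 in i.v. 3, the highest value of the 11 libraries. Npc1 had 159, 205 and 345, and Npc2 1948, 2362 and 1313. The count of 4 was 11 without i.v. 3, with Srebf2, Insig1, Cyp51 and Mbtps1 among the genes called lower, and 7.59% of all genes were then called. It was 1 without DED 1 (Fdps; 0.316% of all genes), and 2, Idi1 and Fdps, without DED 3 (0.408%) and without i.v. 1 (0.812%). Without the libraries richest in lens, retina and muscle markers it was 1 (Fdps; 0.228%). The keratins of the conjunctiva list, but not its secretory genes, were higher in each i.v. library than in any other (values above). Retina markers summed to less in each i.v. library (1381 to 2552) than in any DED library (2579 to 21445). The part of these markers in the differences was not tested. The i.v. libraries had the lowest totals, 8956553 to 9501661 counts. With library totals the median of all genes moved to -0.25, with 75th percentile scaling to -0.19 and without scaling to -0.58. Relative to that median, the median over the 29 genes lay between -0.42 and -0.26 in every alternative. In the main fit single genes of the 29 ran from -1.40 to 0.46, with 5 of them above 0.

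**Figure D3:**
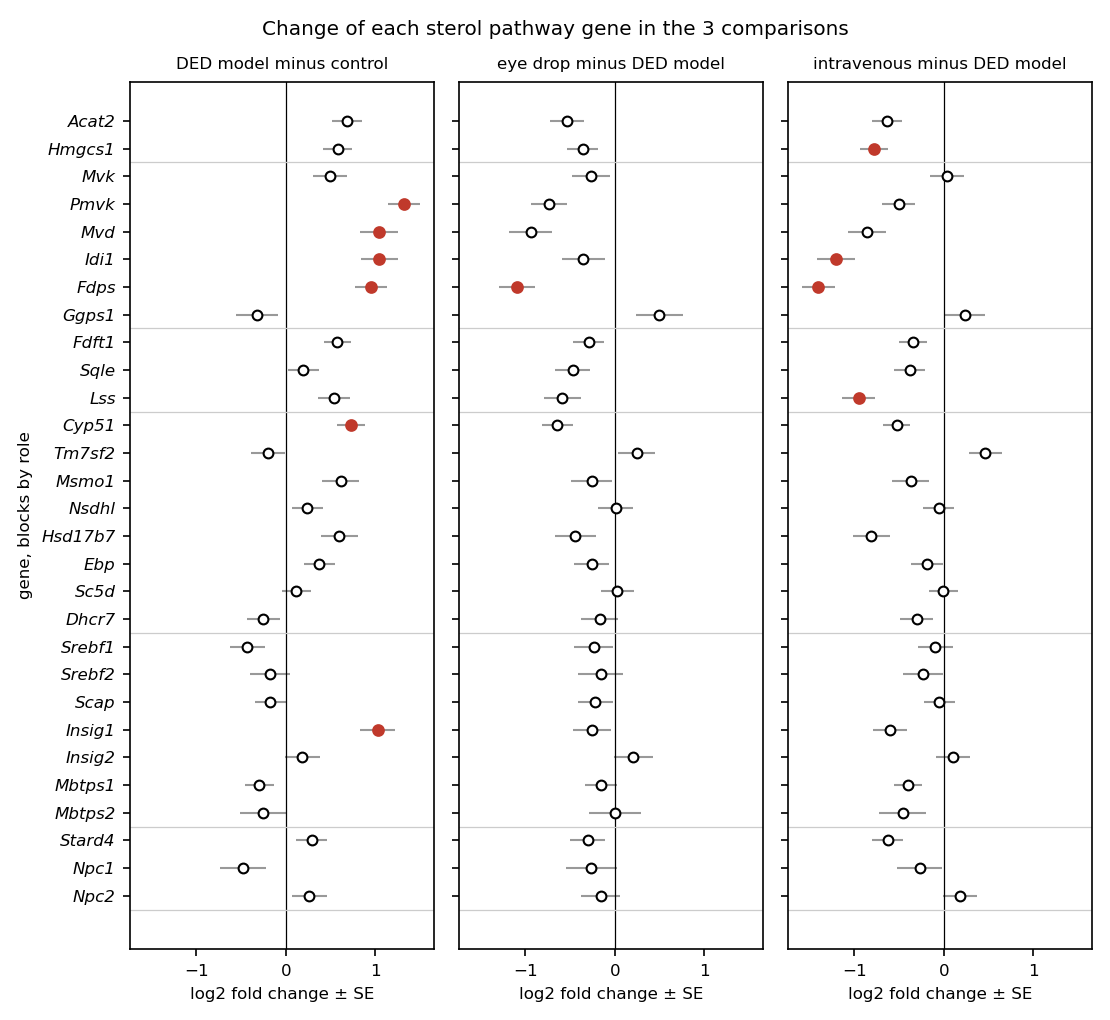
Log2 fold change with its SE (x axis) for each of the 29 genes (y axis, blocks by role) in 3 comparisons; filled red points pass an adjusted p of 0.05 and open points do not. The red points lie above 0 in DED against control (6 genes) and below 0 with the drop (1 gene) and i.v. exosomes (4 genes).

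Treated cornea was then set against untreated cornea, and the routes against each other. With the drop, 0 of 29 genes passed against control (limma), where 0.00472% of all genes did. An unadjusted p under 0.05 was seen in 6 of the 29, against 2249 of all 21203 genes. Limma voom also called 0 of the 29, and without i.v. 3 Insig1 passed (1.77% of all genes did). Drop libraries lay above every control in 8 genes (17.5% of all genes), among them Insig1, Idi1 and Pmvk, and below in 7 (17.4%), among them Srebf1, Srebf2 and Scap. With i.v. exosomes 2 of 29 passed against control (6.9%), a share below the 11.3% of all genes (6.66% higher and 4.68% lower). That balance, 1413 higher and 992 lower, also turned with the scaling: 1089 and 1238 with 75th percentile scaling, 649 and 3930 with library totals, and 269 and 6248 as deposited. Pmvk rose against control (log2 fold change 0.81, SE 0.18, adjusted p = 0.0117), with each i.v. library above each control. Mbtps1, with 568, 554 and 715, fell below control (-0.70, SE 0.16, adjusted p = 0.0137), and each i.v. library lay below each control. The count was 0 without control 1 (where 1.2% of all genes were called), 1 without i.v. 1 (Pmvk; 4.25%) and 10 without i.v. 3 (22.9%). It was 0 without the libraries richest in lens, retina and muscle markers (0.933%). In this comparison the median change was 0.25 in the shortest of the 3 length bins of all genes and -0.24 in the longest. With the correction for length 3 of the 29 passed, Pmvk higher and Fdps and Mbtps1 lower, where 7.64% of all genes were called. Library totals gave 12 calls, with Pmvk no longer among them and 21.1% of all genes called. I.v. libraries lay above every control in 4 of the 29 genes (15.1% of all genes) and below in 6 (13.2%). Between the routes 0 of 29 genes passed (limma), where 0% of all genes did. An unadjusted p under 0.05 was seen in 2 of the 29, against 1953 of all 21203 genes, and limma voom called 0. In 5 of the 29 genes, Hmgcs1, Idi1, Fdps, Mbtps2 and Stard4, each i.v. library lay below both drop libraries, where 12.7% of all genes lay so. In 3 of the 29, Mvk, Pmvk and Tm7sf2, each lay above, where 12.4% did. These counts are near the shares over all genes and are not read as a difference between the routes.

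**Figure D4:**
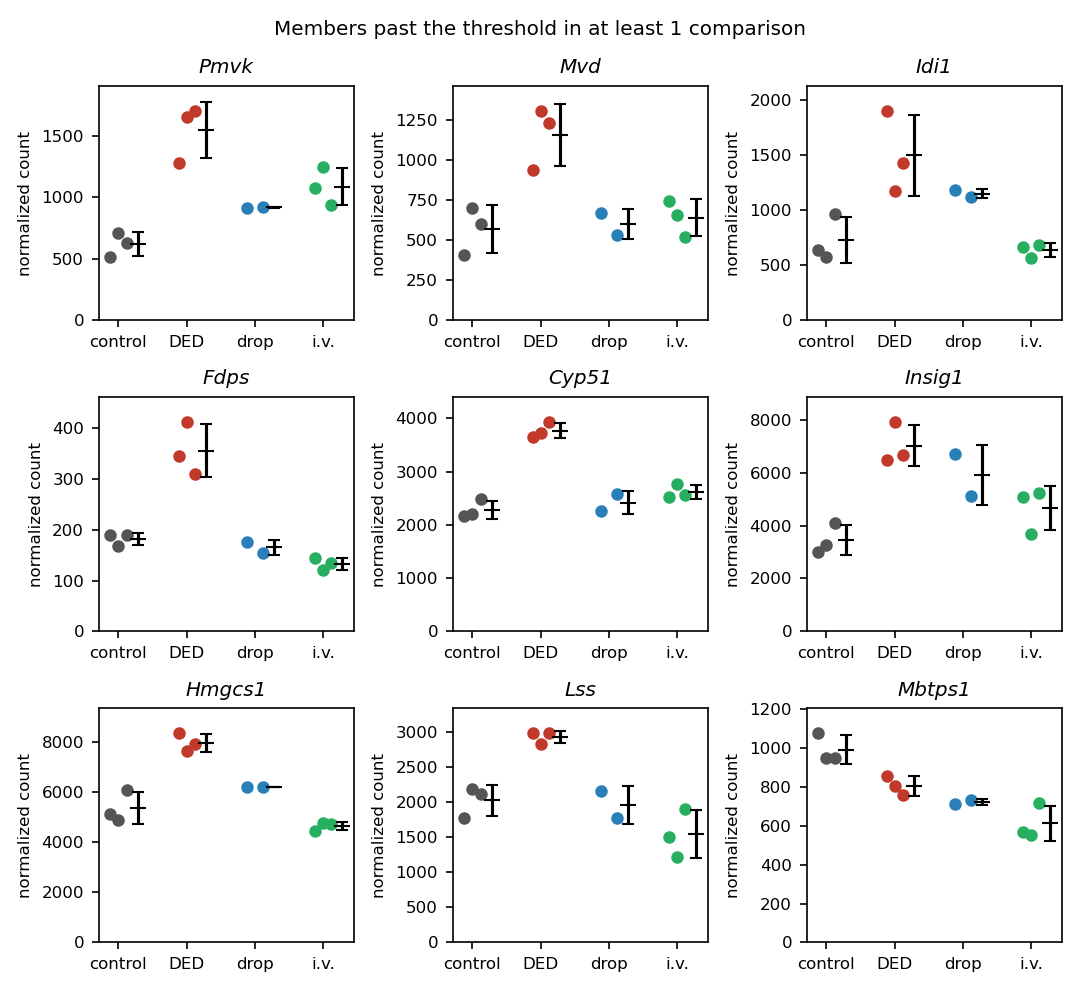
Normalized counts (y axis, from 0) of the 9 genes past the threshold in at least 1 comparison, by group (x axis; i.v. is intravenous); points are libraries, black bars mean ± SD (n = 3, eye drop n = 2). In DED the points of 8 panels stand above those of the controls, and in Mbtps1 they stand below.

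The values were also summarised by role. In each library the median over a segment's genes was taken of log2(normalized count + 1) minus the control mean, as a description. For the 6 mevalonate genes it was 0.84, 0.95 and 0.88 in DED 1, 2 and 3, against -0.20, 0.05 and 0.08 in controls. With the drop it was 0.26 and 0.17, and with i.v. exosomes 0.34, -0.01 and -0.08. For the 3 squalene genes the DED libraries had 0.57, 0.49 and 0.56, the drop libraries 0.09 and -0.19 and the i.v. libraries -0.42, -0.12 and 0.03. For the 8 later sterol genes the DED values were smaller, at 0.34, 0.26 and 0.35, with 0.07 and 0.15 for the drop and 0.11, 0.18 and 0.16 for i.v. exosomes. The 7 SREBP regulators had -0.21, -0.09 and -0.14 in DED, -0.27 and -0.31 with the drop and -0.63, -0.54 and -0.07 with i.v. exosomes. Insig1, which rose in DED, is among these 7. The same median over all genes tested lay between -0.02 and 0.04 in every library.

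**Figure D5:**
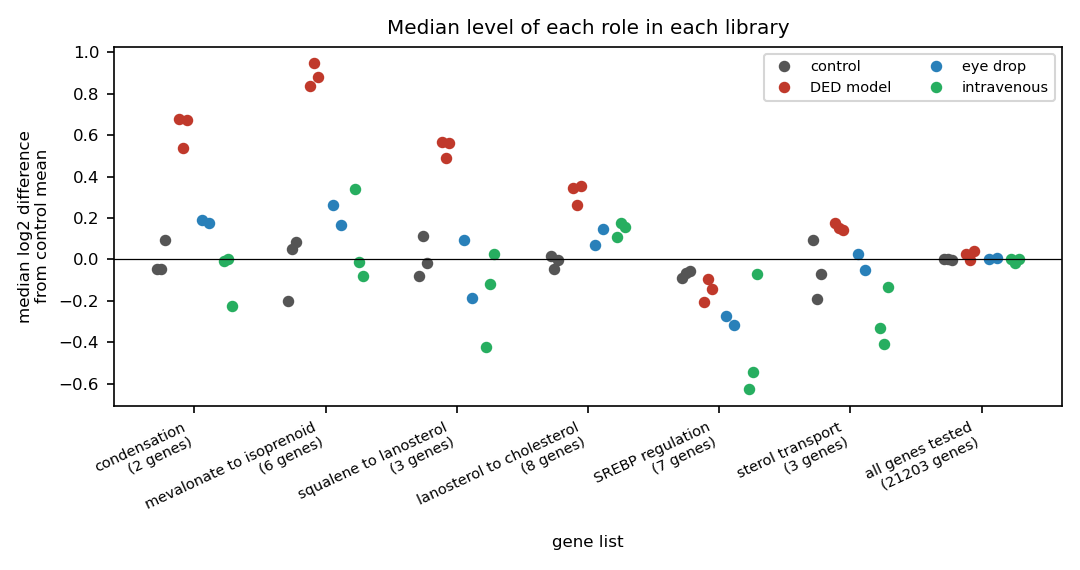
Median over the genes of each role (x axis, with all genes tested at the right) of log2(normalized count + 1) minus the control mean (y axis); each point is 1 library. The DED libraries stand highest in the mevalonate list, at 0.84 to 0.95.

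Other genes of sterol handling were followed as 6 lists of 71 genes, 68 of them tested. In DED against control 0 of 68 passed (limma), where 1.25% of all genes passed. An unadjusted p under 0.05 was seen in 10 of the 68, against 3700 of all 21203 genes. Of the 68, 34 lay above 0 and 34 below, with log2 fold changes from -1.12 to 1.42. Against DED 0 passed with the drop and 0 with i.v. exosomes, with medians of -0.03 and -0.01, where 0.193% and 1.45% of all genes passed. The limma p was under 0.05 without adjustment in 5 and 10 of the 68, against 1495 and 3276 of all 21203 genes. With i.v. exosomes against control 1 of 68 rose and 4 fell, where 11.3% of all genes passed. Cyb5a, a cytochrome that feeds electrons to sterol enzymes, rose by 0.74 (SE 0.18, adjusted p = 0.0164), from 1020, 1187 and 1153 to 2151, 2147 and 1416 normalized counts. Lbr, a sterol reductase of the nuclear envelope, had a log2 fold change of -0.66 (SE 0.17), and Rnf145, a sterol-responsive ubiquitin ligase, -0.69 (SE 0.16). The transporter gene Abca7 (-0.69, SE 0.19) and the oxysterol-binding relative Osbpl1a (-0.72, SE 0.17) fell as well. The efflux and LXR list (9 genes), the ester and oxysterol list (11), the carrier and receptor list (15), the isoprenoid branch (13), the sterol-regulated degradation list (9 tested) and the acetyl-CoA supply list (11 tested) had medians in DED of -0.01, 0.47, -0.11, -0.04, -0.23 and 0.25.

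Clock genes moved with the groups in the same libraries. Dbp, a transcription factor of the clock's output, had 1304, 1786 and 1407 normalized counts in controls, 112, 319 and 259 in DED, 1743 and 1665 with the drop, and 1989, 2059.8 and 1557 with i.v. exosomes. Arntl, the clock's activator, had 126, 136 and 114 in controls, 422, 255 and 354 in DED, 60.5 and 75.5 with the drop, and 77.7, 64.7 and 78.4 with i.v. exosomes. Of 15 clock genes 2 rose and 7 fell in DED against control, where 0.736% of all genes were called higher and 0.514% lower. With the drop against DED 5 rose and 2 fell, where 0.127% of all genes were called higher and 0.066% lower. With i.v. exosomes against DED 7 rose and 2 fell, where 0.962% of all genes were called higher and 0.49% lower. The hour of collection is not in the labels, and its part in the sterol gene differences was not tested.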

How the data were processed

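RNA of mouse cornea was sequenced after NEBNext Ultra library preparation, per the labels' protocols. The authors deposited 1 table of log2 values, which the values show to be log2(count + 1): 99.9748% of values in the 11 columns used gave a whole count within 0.01. The build mm9 is named per the submitters' processing notes; the sources used here do not name an aligner, counter or annotation. The third eye drop column, a mean of the other 2, and 19 lines (9 named by dates, 10 not whole) were left out. Counts were divided by size factors (median of ratios). The 21203 genes that reached a normalized count of 1 in 3 or more libraries were tested on log2(normalized count + 1), pseudocount 1, with limma 3.58.1 (trend and robust, R 4.3.3), all 4 groups in 1 fit with 7 residual degrees of freedom, and Benjamini-Hochberg adjustment with a threshold of 0.05. Fold changes on this scale understate changes of low genes. Since the deposited unit is log2, no count model was the main test, and limma voom on the recovered counts served as an alternative.

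Every member is accounted for. Those past the threshold in any comparison, and the one with the highest mean count of each role, have their value in every library given; other sterol genes are counted by list and named where they passed, at most 4 per list. The members and lists were chosen with earlier results of these data known. Exon lengths and overlaps come from GENCODE on GRCm38 and no coordinates were converted. Alternatives covered scaling, pseudocount, filter, variance model, samples, libraries, length and pairing.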

Additional observations from a re-analysis of the deposited data

How the results depend on the processing

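Of the 29 genes, the number called in DED against control was 6. It was 3 with values as deposited (where 0.773% of all genes were called) and 10 with the length correction (1.41%). It was 1 with a plain limma fit without trend or robust estimation (0.283%). It was also 1 when the libraries richest in lens, retina and muscle markers were dropped (share of all genes above). For the drop against DED the number was 1. It was 0 with values as deposited (where 0.143% of all genes were called), with no filter on low values (0.139%) and with a plain limma fit (0.0283%). It was also 0 with the replicate block (0.123%) and with the length correction and replicate block (0.156%). The third eye drop column, the mean of the other 2, gave 2 (0.539%). It holds no measurement of its own, so no count given with it, here or below, comes from an added replicate. Without the marker-rich libraries eye drop 1 alone is left in its group, so no count is given. For i.v. exosomes against DED it was 4. It was 10 with 75th percentile scaling (where 1.82% of all genes were called), 11 with library totals (2.7%) and 22 as deposited (16.2%). It was 1 with a plain limma fit (0.307%), 2 with only the 2 groups compared (0.368%) and 9 with the third eye drop column (2.84%). It was 1 without the marker-rich libraries (share of all genes above) and 7 with the length correction (1.74%). For the drop against control it was 0, and 1 with the third eye drop column (1.45% of all genes). For i.v. exosomes against control it was 2. It was 5 with 75th percentile scaling (2327 of 21203 genes in all), 12 with library totals (21.1% of all genes) and 14 as deposited (28.3%). It was 0 with a plain limma fit (1.75%), 0 without the marker-rich libraries (share of all genes above) and 4 with the third eye drop column (16.1%). Between the routes it was 0, and 8 as deposited (6.1% of all genes). Without control 1 and i.v. 3 together, an alternative chosen after seeing the data, the number for DED against control was 9 (2.03% of all genes). Of these, 5 were among the 6, without Idi1. Drop against DED then had 4 (0.551%), i.v. against DED 12 (9.75%) and drop against control 0 (0.336%). I.v. against control then had 8 (16.4%), and between the routes there were 2 (4.8%). Leaving out each library in turn gave 1 to 12, 0 to 1, 1 to 11, 0 to 1, 0 to 10 and 0 to 0 in the order DED against control, drop against DED, i.v. against DED, drop against control, i.v. against control and between the routes. The share of all genes called shifted with these settings as well, and the cause of the shifts was not tested.

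Same-numbered libraries did not deviate together in every pair: the correlation of their deviations was 0.387, 0.0997 and 0.0631 for control and DED, and -0.151, 0.0165 and -0.228 for DED and i.v. exosomes, so the numbers were not taken as pairs. With the replicate block the numbers called were 6, 0, 5, 0, 2 and 0 in the order above. The shares of all genes called were 1.0%, 0.123%, 1.69%, 0.00472%, 11.6% and 0.0% in the same order. With 2 or 3 libraries per group, differences of the size seen in Acat2 or Hmgcs1 in DED lay near the threshold.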
